A study of Rattus norvegicus with 4 samples.

Results

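The nuclear receptors of rat liver, apart from the bile acid receptor FXR (Nr1h4) and its target SHP (Nr0b2), were followed 12 h after ligation of the common bile duct. Members were taken by gene symbol from the array's probe table (symbols beginning with Nr and a digit, the Ppar, Rxr and Rar genes, and Thra, Thrb and Hnf4a), whatever their values. This gave 12 of the 958 named genes, measured by 20 probes. The ligated group was male Sprague-Dawley rats of 250 to 300 g whose duct had been tied. The sham group was rats of the same kind whose duct was exposed but not tied. RNA from 3 livers of a group was pooled, so differences between animals cannot be seen. Each of 4 two-colour cDNA arrays carried both pools, with ligation in Cy5 on arrays 1 and 3 and in Cy3 on arrays 2 and 4.

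Nuclear receptors are transcription factors switched by small lipid-soluble ligands. The steroid receptors bind DNA as pairs of like molecules, whereas receptors for oxysterols, fatty acids, retinoic acid and thyroid hormone pair with a retinoid X receptor (RXR). In hepatocytes they govern bile acid, sterol, fatty acid and drug metabolism, and bile acids themselves act through FXR, whose partner is also an RXR.

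Of the 12 receptor genes, the oxysterol receptor Nr1h2 (LXR-beta) and the mineralocorticoid receptor Nr3c2 were higher in the ligated pool and the retinoid X receptor Rxra was lower. Nr1h2 was 1.57-fold higher (log2 0.65 ± 0.07, SE, 4 arrays), Nr3c2 was 1.17-fold higher (0.23 ± 0.07), and Rxra was 1.41-fold lower (-0.50 ± 0.07). The other 9, among them the glucocorticoid receptor Nr3c1, Pparg and the retinoic acid receptors, did not pass limma's Benjamini-Hochberg adjusted p under 0.05. These were 3 of 12, against a background of 27.1% of all 958 genes called (11.7% higher, 15.4% lower), so the receptors were called about as often as other genes. Their median log2 value was 0.01 (0.0141), against -0.01 (-0.013) over all genes.

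These values take each deposited number as log2 of ligation over sham, centred on the median of its array. The labels list sham as the first channel and ligation as the second, which makes this direction likely. Neither it nor the logarithm's base is given outright. The deposited medians were -1.26, 0.43, -0.96 and 0.26 on arrays 1 to 4. Over the 20 receptor probes, arrays of opposite dye orientation correlated at Pearson r between -0.60 and -0.43, against 0.94 and 0.97 for arrays of the same orientation. Over all 1936 probes the opposite pairs gave -0.45 to -0.28. The probes share slides and labelling reactions, so these are descriptions. If the numbers were Cy5 over Cy3 on every array, the sign of arrays 2 and 4 would turn, and the ligation value and the dye term of a gene would change places. Nr1h2 would then be at 0.77, Nr3c2 at 0.16 (limma adjusted p = 0.0596) and Rxra at 0.54, higher instead of lower. In that reading 10 of the 12 receptors would be called, against 78.0% of all genes, and without centring 10 of 12, against 83.7%. The p-values and SEs reflect only the spread between arrays left by the dye term, with variance shared over all features. Without a dye term the SE of Nr1h2 was 0.35 instead of 0.07. Such spread may be purely technical, since all arrays may have used 1 pool of each kind.

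Nr1h2, a sterol-sensing receptor that induces genes of cholesterol export and lipid synthesis, was the highest of the receptors as ligation over sham and ranked 10 of 958 genes from the top. As Cy5 over Cy3 it would rank 69, below Rxrg at 45. Its single probe gave 1.49 on array 1 and 1.35 on array 3, both with ligation in Cy5, and -0.19 on array 2 and -0.05 on array 4, with ligation in Cy3. The orientations did not overlap and were on opposite sides of 0. The positive mean thus comes from arrays 1 and 3 (mean 1.42), with arrays 2 and 4 slightly below 0 (mean -0.12). In the fit with a dye term the value was 0.65 (95% interval 0.49 to 0.81, limma adjusted p = 2.37e-05). SHP, which lies outside the set, had nearly the same values (1.63, -0.13, 1.13 and -0.03 on arrays 1 to 4, mean 0.65), whereas FXR was lower on each array, from -1.01 to -0.28.

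Rxra, the partner shared by LXR, FXR and the retinoic acid receptors, was the lowest receptor as ligation over sham and ranked 53 from the bottom. As Cy5 over Cy3, at 0.54, it would be the third highest of the receptors and Nr2f1 (-0.65) the lowest. The gene was at 0.12 and -0.04 (-0.036) on arrays 1 and 3 and at -1.03 and -1.04 on arrays 2 and 4 (95% interval of the mean -0.65 to -0.34, limma adjusted p = 0.000196). Arrays 2 and 4 were the low ones, and the orientations again did not overlap. Its 2 probes differed. Probe 1512 was below 0 on every array, at -0.08, -1.63, -0.33 and -1.57 on arrays 1 to 4, with a mean of -0.90. Probe 1225 was at 0.33, -0.43, 0.26 and -0.50, with a mean of -0.09 (limma adjusted p = 0.523). Probe 1225 lay above probe 1512 by 0.82 ± 0.38 (SD, 4 arrays) and on each of the 4 arrays. The exact two-sided sign-flip test gave p = 0.125, the smallest that 4 arrays allow. The lower value of the gene therefore rests on 1 of its 2 probes.

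**Figure D1:**
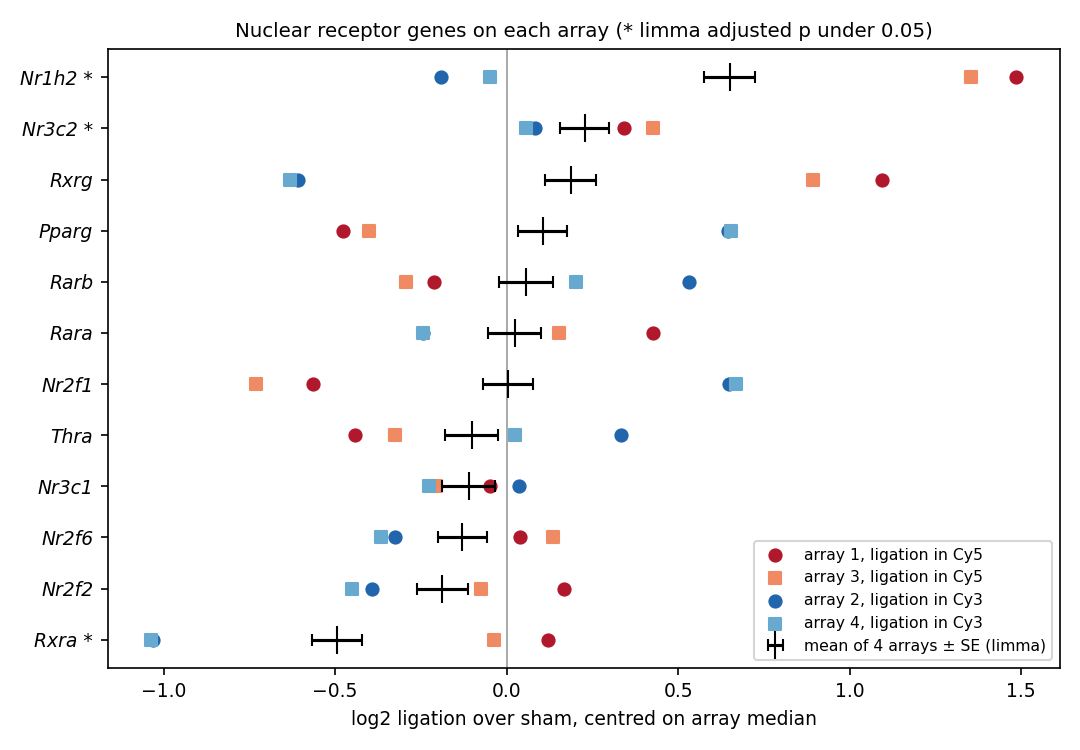
Centred log2 ratio of ligation over sham for the 12 receptor genes (rows), with 1 point per array and the mean ± SE of the limma fit in black. Red points are arrays with ligation in Cy5 and blue points arrays with ligation in Cy3. Nr1h2 sits at 1.49 and 1.35 against -0.19 and -0.05, and Nr3c2 is the gene with all 4 points above 0.

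The sequences before the start sites of Nr1h2 and Rxra are shown because these were the highest and the lowest receptor as ligation over sham and their proteins form a heterodimer. As Cy5 over Cy3 those places would go to Rxrg and Nr2f1. Each is the 250 bases before the start in RefSeq's promoter table of build GRCr8, on the gene's own strand. The Nr1h2 window lies at chr1:104183864-104184113 on the minus strand and the Rxra window at chr3:31387642-31387891 on the plus strand. Capitals mark CTTCCGG or its reverse complement CCGGAAG, a core motif of ETS factors that was chosen after the sequence had been read.

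Nr1h2: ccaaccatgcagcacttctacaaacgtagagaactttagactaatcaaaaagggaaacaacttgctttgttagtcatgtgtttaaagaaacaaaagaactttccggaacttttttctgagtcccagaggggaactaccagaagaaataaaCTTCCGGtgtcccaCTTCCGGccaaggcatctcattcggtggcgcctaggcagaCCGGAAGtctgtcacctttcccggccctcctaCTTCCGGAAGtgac

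Rxra: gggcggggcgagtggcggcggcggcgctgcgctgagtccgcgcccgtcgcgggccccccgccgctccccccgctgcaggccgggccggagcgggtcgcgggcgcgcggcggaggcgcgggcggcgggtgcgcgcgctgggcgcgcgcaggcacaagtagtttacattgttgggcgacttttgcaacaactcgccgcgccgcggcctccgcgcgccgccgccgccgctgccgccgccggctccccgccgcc

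The Nr1h2 window held 5 matches, counting both strands and an overlapping pair near its 3′ end, and the Rxra window held none. Of 33469 windows in the table, 7.27% held at least 1 match and 2 windows held at least as many as Nr1h2, which is 1 of those 2. The Nr1h2 window was 47.2% G and C, and that of Rxra 82.8%. The half-site AGGTCA, which many nuclear receptors bind, or its reverse complement TGACCT, was in none of the 13 windows of the 10 receptors listed there, against 14.1% of all windows. These are matches of letters in short windows and say nothing of binding or of the RNA ratios.

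The other retinoid X receptor, Rxrg, was not called as a gene (0.19 ± 0.07, limma adjusted p = 0.0821, 95% interval 0.03 (0.0262) to 0.35). Probe 582 was at 1.37, -0.34, 1.13 and -0.32 on arrays 1 to 4 (mean 0.46, adjusted p = 0.000586). Probe 1540 was at 0.82, -0.88, 0.66 and -0.94 (mean -0.09, exactly -0.085, adjusted p = 0.545). Both followed the dye orientation, and probe 582 stood above probe 1540 by 0.54 ± 0.06 (SD, 4 arrays), a gap of 0.47 to 0.62 on each array. The exact sign-flip p was again 0.125. The gene became a call when the spots taken as controls were left out of the centring (0.22, adjusted p = 0.0352) or a curve on the dye term was subtracted (0.29, adjusted p = 0.00874). Without centring it was at -0.19 (-0.195, adjusted p = 0.0565), and as Cy5 over Cy3 it was called at 0.81 (adjusted p = 4.96e-06).

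Among the receptors that pair with RXR, none besides Nr1h2 passed. Pparg, the regulator of fat-cell genes, had 1 probe at -0.48 and -0.40 on arrays 1 and 3 and at 0.65 and 0.65 on arrays 2 and 4 (mean 0.11, 95% interval -0.05 to 0.26, adjusted p = 0.341). The thyroid hormone receptor Thra was at -0.44 and -0.33 on arrays 1 and 3 and at 0.33 and 0.03 (0.0259) on arrays 2 and 4 (mean -0.10, interval -0.27 to 0.07). For both genes the orientations fell on opposite sides of 0, the reverse of the order seen for Nr1h2. The retinoic acid receptor Rarb, likewise with 1 probe, was at -0.21 and -0.29 against 0.53 and 0.20 (mean 0.06, interval -0.11 to 0.23).

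Rara, the retinoic acid receptor present in most tissues, averaged 0.02 (0.0231, interval -0.14 to 0.19) over 3 probes that did not run alike. Probe 1593 was at 0.93, -0.40, 0.69 and -0.54 on arrays 1 to 4, and probe 1660 at 0.79, -0.95, 0.52 and -0.80. Probe 1619 ran the other way, at -0.44, 0.62, -0.75 and 0.60. With the orientations averaged, the 3 probes came to 0.17, -0.11 and 0.0069, and none was called. As Cy5 over Cy3 they would be at 0.64, 0.76 and -0.60, a range of 1.37 instead of 0.28. Across the 6 receptors with several probes neither reading brought the probes closer throughout: the range was smaller as ligation over sham in 3 of 6, while for Rxra it was 0.82 against 0.32 as Cy5 over Cy3 and for Rxrg 0.54 against 0.04 (0.037). Over all 340 genes with several probes it was smaller as ligation over sham in 72.6%. The scales differ, however: over all genes the median size of a value was 0.10 as ligation over sham and 0.40 as Cy5 over Cy3. Smaller values can give smaller ranges, so these ranges cannot tell which reading is right.

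Of the steroid receptors, Nr3c2, which binds aldosterone and glucocorticoids, was the 1 receptor gene with the same sign on all 4 arrays, a pattern shared by 12.6% of all genes. As Cy5 over Cy3 its arrays would differ in sign, and 8 other receptors would have 1 sign on all 4. Its single probe was at 0.34 and 0.43 on arrays 1 and 3 and at 0.08 and 0.06 on arrays 2 and 4, so every array was above 0 and the arrays with ligation in Cy5 were the higher ones. The 95% interval was 0.07 to 0.38 and limma's adjusted p 0.03 (0.02996). With array 2 left out the value was 0.22 and no longer a call (adjusted p = 0.175). The same held with array 3 left out (0.21, adjusted p = 0.0796), with array 4 left out (0.23, adjusted p = 0.151) and with print-block centring (0.15, adjusted p = 0.112). Without array 2 or array 4, limma gave every receptor gene the same SE of 0.11, against 0.07 for Nr3c2 over all 4 arrays. In those fits the value of Nr3c2 hardly moved and the SE was larger. Without centring the value was -0.15 (adjusted p = 0.152), so its direction rests on the zero point.

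Nr3c1, the glucocorticoid receptor through which stress hormones act on the liver, averaged -0.11 over 3 probes (interval -0.28 to 0.06, adjusted p = 0.361). The gene values were -0.05, 0.04, -0.20 and -0.23 on arrays 1 to 4, the smallest dye term of the set (-0.0164). Its probes hid larger swings. Probe 217 was at -0.38, 0.37, -0.11 and 0.33, and probe 1361 at 0.37, -0.40, -0.17 and -0.66, so their dye patterns cancelled in the mean. Probe 340 lay between -0.34 and 0.14.

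The COUP-TF group of orphan receptors was not called. Nr2f1 was at -0.56, 0.65, -0.73 and 0.67 on arrays 1 to 4 (mean 0.0051, interval -0.15 to 0.16). Its 2 probes carry the same clone in different print blocks, and their means were 0.03 (0.0279) and -0.02 (-0.0176). They differed by 0.05 (0.0456) ± 0.12 (SD, 4 arrays), a measure of how closely a repeated clone agreed.

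Nr2f2, known for its part in vein formation, was at 0.17, -0.39, -0.07 and -0.45 (mean -0.19, interval -0.35 to -0.02 (-0.0237), adjusted p = 0.0867). It was called lower without array 1 (-0.25, adjusted p = 0.0431). Nr2f6 was at 0.04, -0.32, 0.13 and -0.37 (mean -0.13, adjusted p = 0.223). As single probes, 1129 was called lower (0.58, -0.99, 0.33 and -1.04, mean -0.28, adjusted p = 0.0174) and 537 was not (-0.50, 0.34, -0.06 and 0.31, mean 0.02, exactly 0.0233). At the level of probes, 5 of 20 were called, 3 higher and 2 lower, against 27.9% of the 1648 probes tested.

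**Figure D2:**
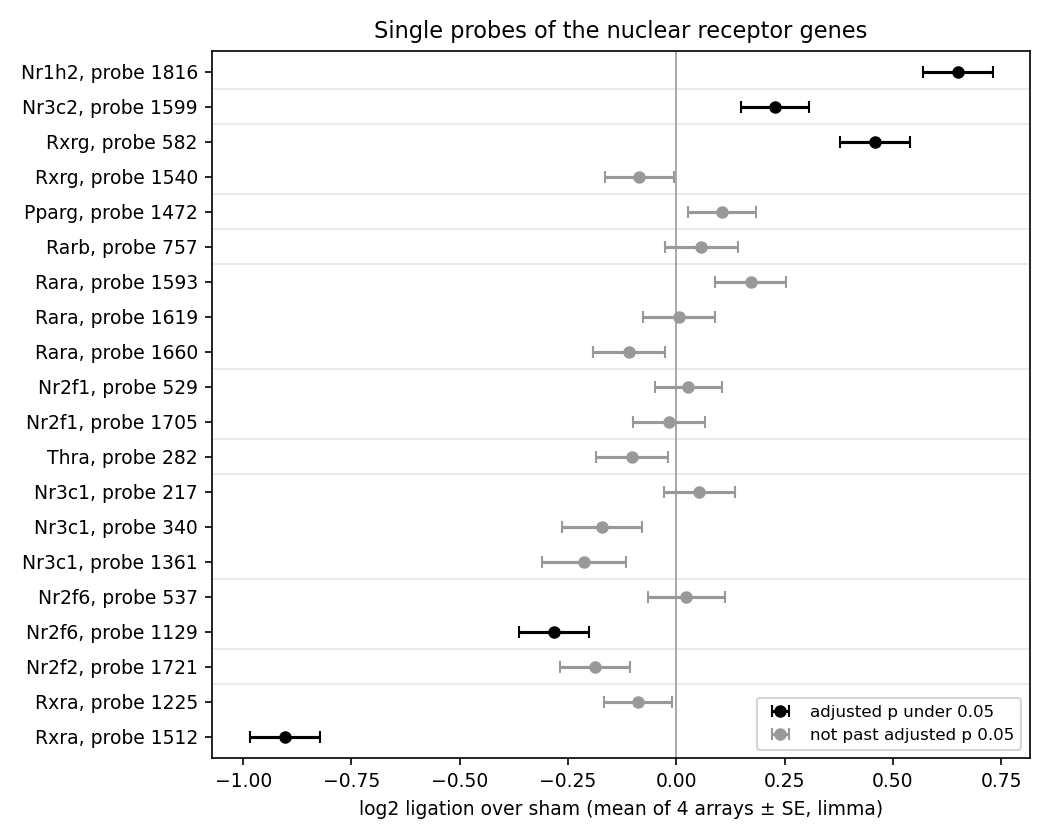
Limma estimate ± SE of log2 ligation over sham for each of the 20 receptor probes, grouped by gene, with called probes in black. The paired probes of Rxra (-0.90 and -0.09), Rxrg (0.46 and -0.09) and Nr2f6 (-0.28 and 0.02) lie apart, while those of Nr2f1 coincide.

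The dye term, which is 0.5 times the mean with ligation in Cy5 minus the mean with ligation in Cy3, passed adjusted p under 0.05 for 10 of 12 receptors, against 78.0% of all genes. It was larger in size than the ligation value for 10 receptors (83.3%) and for 78.2% of all genes. In 8 of the 12, both Cy5 arrays lay on 1 side of 0 and both Cy3 arrays on the other, as in 68.4% of all genes. Without a dye term in the fit, limma called none of the 12 receptors and none of the 958 genes, with 0 receptors and 52 genes at an unadjusted p under 0.05.

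The spread of ligation values over genes changed with the dye term. Genes were ordered by dye term and cut into 4 bins of 239 or 240. In the bin with the lowest dye terms (-0.89 to -0.31) the SD of the ligation value was 0.08 and 2.08% of the genes were called. The next bins had SDs of 0.23, 0.30 and 0.48, with 21.8%, 36.0% and 48.8% called. Nr2f1 and Pparg fell in the lowest bin. Nr3c1, Rarb and Thra were in the next, Nr2f2, Nr2f6, Nr3c2 and Rara in the third, and Nr1h2, Rxra and Rxrg in the highest, where 2 of the 3 were called. Of the 288 spots taken as controls, 148 had a dye term in the range of the lowest bin or below it. Their median ligation value was 0.02 (0.0159), with an SD of 0.05. Another 96 control spots were in the range of the highest bin or above it. No intensities were used, so whether Nr2f1, Pparg or Rara probe 1619 were above background was not tested, and their values near 0 do not show that their RNA was equal in the pools.

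**Figure D3:**
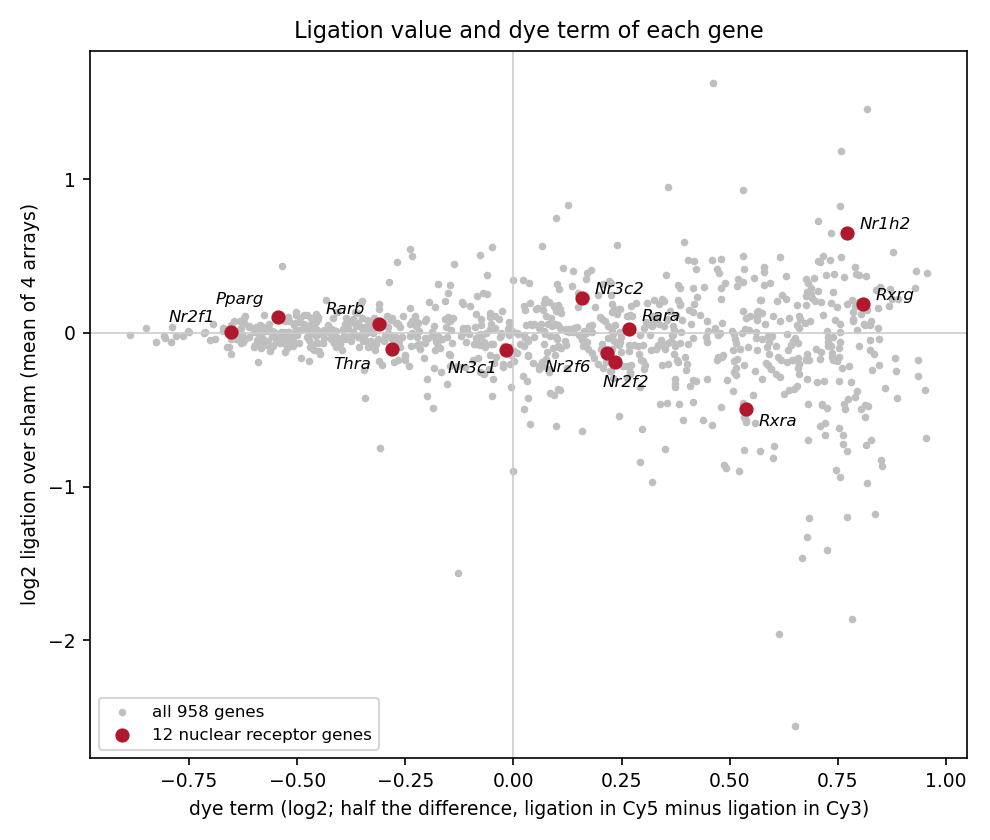
Mean log2 ligation over sham (vertical) against the dye term (horizontal) for all 958 genes in grey and the 12 receptors in red. The points fan out from left to right: the SD of the ligation value is 0.08 in the lowest of 4 bins of the dye term, which holds Nr2f1 and Pparg, and 0.48 in the highest, which holds Nr1h2, Rxra and Rxrg.

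The genes most like each called receptor were taken as the 3 with the smallest Euclidean distance over the 4 centred array values. For Nr1h2 these were the nucleolar protein Npm1 (distance 0.24), SHP (0.27) and the cadherin Cdh3 (0.34). For Nr3c2 they were the glutathione peroxidase Gpx2 (0.11), the ATP synthase inhibitor Atp5if1 (0.15) and the lipid kinase Pi4kb (0.17). For Rxra they were the peroxisomal hydroxyacid oxidase Hao2 (0.12), Creld2 (0.12) and the cytochrome P450 Cyp2a3 (0.14). The distance takes in the dye pattern as well as the ligation value.

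Textbook target genes of the receptors gave 42 measured genes out of 151 listed, of which 11 were higher, 15 lower and 16 not called, 61.9% called against 27.1% of all genes. The lists overlap, and results of these arrays were already known when they were drawn up. Over all genes the share called rose with the dye term, from 2.08% in the lowest bin to 48.8% in the highest. The targets were not matched to other genes by dye term, so the 2 shares are not of like genes. Leaving out the centring lowered every gene by the same amount. Of the 11 higher calls 10 were lost, Scd being the exception. The 15 lower calls were kept, which is no test of them, since lower values only became lower still. Read as Cy5 over Cy3, 10 of the 15 lower genes were called higher. The higher calls thus depend mostly on the zero point, and most of the lower ones on how the ratios are read.

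Of 5 measured LXR targets, 2 were higher and 1 lower, with a median of 0.01 (0.0105). The desaturase Scd (0.93) and the fatty acid synthase Fasn (0.50, not called without centring) were the higher ones. Scd was above 0 on each array (lowest 0.26, highest 1.61), whereas Fasn was at 1.01 and 1.05 on arrays 1 and 3 and at -0.07 and 0.0066 on arrays 2 and 4. Cyp7a1, an LXR target in rodents and the first enzyme of bile acid synthesis, was lower (-0.90, below 0 on each array, and at -0.00036 as Cy5 over Cy3). The lipoprotein lipase Lpl (0.0072) and the lipid carrier Apoe (0.01, exactly 0.0105) did not pass. Without centring both were called lower, and as Cy5 over Cy3 Lpl would be called at -0.52 and Apoe at 0.72.

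Of 9 PPAR targets, most of which serve fatty acid oxidation and transport, 5 were lower and 1 higher (median -0.23). The counts do not take account of whether a receptor raises or lowers its target. The fatty acid transporter Cd36 (-0.39 ± 0.10) was below 0 on every array, with -0.27, -0.10, -0.34 and -0.85. Cpt1a (-0.30) and Hadhb (-0.21) were also called lower and below 0 on every array. As Cy5 over Cy3, Cd36 (0.08) and Hadhb (0.06) would not be called, and Cpt1a would be called lower at -0.20. Acsl1 was at -1.96, Echs1 at -0.46 and the apolipoprotein Apoa1 at 0.38 (not called without centring). As Cy5 over Cy3, Acsl1 and Echs1 would be higher, at 0.61 and 0.76.

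Of 8 targets of the drug-sensing receptors CAR and PXR, 5 were lower and 2 higher (median -0.35). The lower ones were led by Cyp2b21 (-1.20), Gstm2 (-0.82) and Cyp3a23-3a1 (-0.70), each of which would be higher, at 0.77, 0.85 and 0.68, as Cy5 over Cy3. Closely related P450 transcripts may share a cDNA probe. The retinal dehydrogenase Aldh1a1, also in the retinoid list, was higher by 0.56 ± 0.08 and varied little, at 0.38, 0.54, 0.64 and 0.67 on arrays 1 to 4. It was not called without centring (adjusted p = 0.131) or as Cy5 over Cy3 (-0.05, adjusted p = 0.555).

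Of 12 targets of the hepatocyte factor HNF4A, 4 were higher and 4 lower (median -0.08). The lower ones, Cyp8b1, Slc10a1, Cyp7a1 and Cyp27a1, belong to bile acid synthesis and uptake, and the higher ones, Tf, Apoa1, Ttr and Serpina1, are secreted plasma proteins at 0.20 to 0.38, none called without centring. Read as Cy5 over Cy3, Slc10a1 and Cyp27a1 would be called higher and Serpina1 lower. Of 8 glucocorticoid receptor targets, 3 were higher and 1 lower (median -0.04). The metallothionein Mt1 was lower (-0.87, but 0.85 as Cy5 over Cy3), the NF-kappa-B inhibitor Nfkbia (0.32) and the transcription factor Cebpd (0.30) were higher, neither called without centring, and Sgk1, a kinase induced by both steroid receptors of the set, was at -0.01 (-0.0108) over 4 probes.

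Of 5 thyroid hormone targets, Fasn was higher and Cyp7a1 lower, and the calcium pump Atp2a1 (-0.21, adjusted p = 0.0526) and the malic enzyme Me1 (0.13) did not pass. Of 3 retinoid genes, Aldh1a1 and the carrier Ttr (0.26, but 0.69 as Cy5 over Cy3 and not called without centring) were higher, and the retinoic acid-binding protein Crabp2 (0.05) did not pass. As Cy5 over Cy3, Me1 and Crabp2 would be called lower, at -0.36 and -0.51. None of 4 coregulators was called by limma, and none had an unadjusted p under 0.05. They were the co-repressor Ncor1 (-0.17 ± 0.10), the coactivator Ncoa2 (-0.06), the deacetylase Hdac1 (-0.04) and the mediator subunit Med1 (-0.0089). Without centring each of them was called lower, as were most genes. As Cy5 over Cy3, Ncor1 would be called at 0.38, Ncoa2 at -0.63 and Med1 at -0.50. The estrogen-related receptor Esrra, a nuclear receptor outside the naming rule, was at 0.15 ± 0.07 (adjusted p = 0.148) and above 0 on all 4 arrays.

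Ratios give no level, so the tissue could not be checked against absolute marker levels. Over all genes 27.1% were called (11.7% higher, 15.4% lower). In the highest bin of the dye term, which holds the hepatocyte markers Tf, Apoa1 and Ttr, 48.8% were called. All 4 measured hepatocyte markers were called higher (0.20 to 0.38), though without centring none of them was called, and all 3 leukocyte markers lower (-0.57 to -0.27), though each would be called higher as Cy5 over Cy3. Of 3 endothelial markers Ece1 (-1.18, but 0.84 and called higher as Cy5 over Cy3) and Kdr (-0.33, not called as Cy5 over Cy3) were lower. Of 3 stellate cell and matrix markers Timp1 was higher (0.35, not called without centring or as Cy5 over Cy3) and Col1a1 lower (-0.23, not called as Cy5 over Cy3). Of 2 genes listed as duct markers Anxa5 was higher (0.95) and Spp1 was not called (0.14, limma adjusted p = 0.212). Whether Anxa5, an annexin, is particular to ducts was not tested, so its value is not a measure of duct cells. As Cy5 over Cy3, Spp1 would be called lower, at -0.41. The blood marker Pf4 was not called (-0.02), but would be called lower as Cy5 over Cy3, at -0.42. In pooled whole liver, fewer cells of a type and less RNA per cell cannot be told apart, and the part of these markers in the receptor values was not tested.

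**Figure D4:**
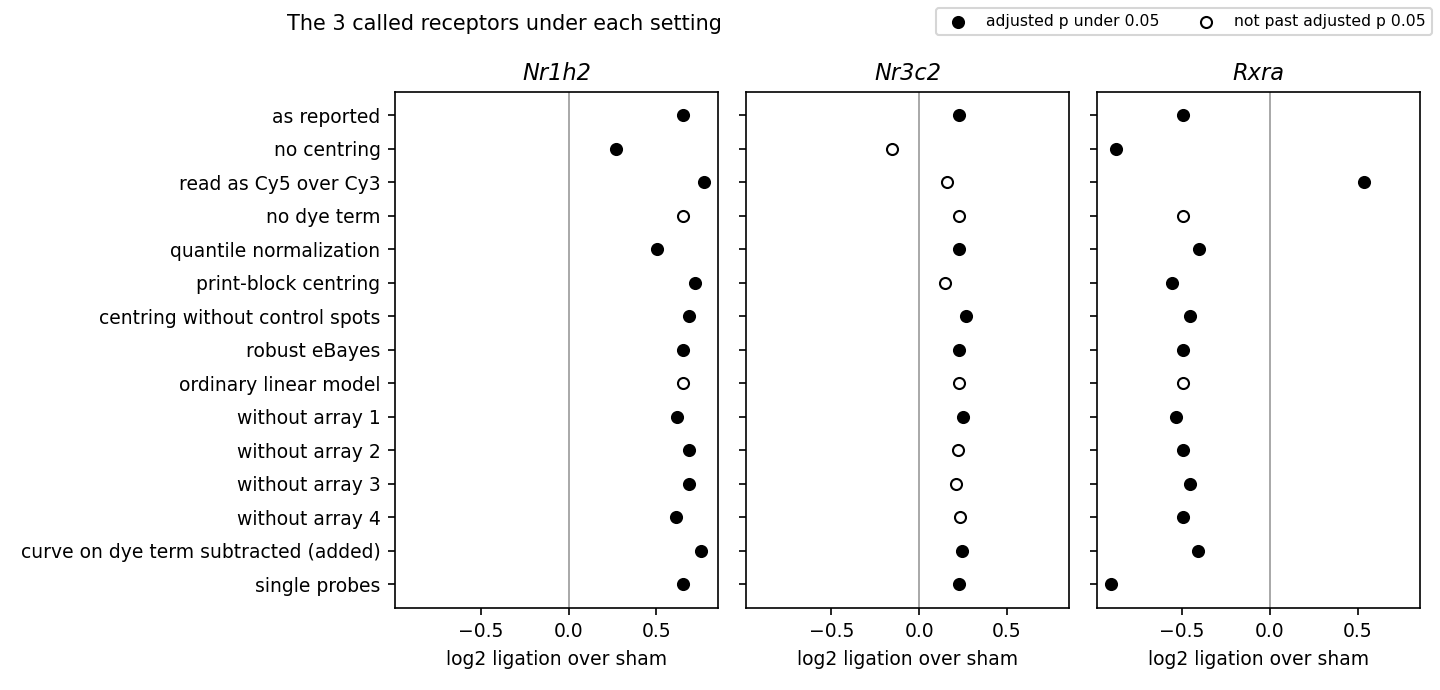
Log2 ligation over sham of Nr1h2, Nr3c2 and Rxra (panels) under each processing setting (rows), with filled points past limma's adjusted p of 0.05. Nr1h2 stays above 0 in every row (0.27 to 0.77), Nr3c2 falls below 0 without centring (-0.15), and Rxra turns to 0.54 when read as Cy5 over Cy3. In the row of single probes, Rxra is its probe 1512 alone.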

How the data were processed

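Per the labels' protocols, liver RNA of 3 rats per group was pooled, poly(A) RNA was reverse transcribed with Cy3 or Cy5 nucleotides, and both pools were hybridised to a glass cDNA array. The values are ratios deposited by the authors and read here as log2, 1 for each of 1936 probes and 4 arrays. Scanning, background correction, normalization and logarithm base were not given in the sources used here. Base 2 was assumed, so natural logarithms would make each value larger. No intensities were used, so precision rests on the number of arrays.

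Symbols came from the platform annotation (1432 probes with 1 symbol, 19 with several, 485 unnamed), and all 20 receptor probes matched a RefSeq gene number with the same symbol. Other receptors that the naming rule covers, such as Ppara, Nr1h3 and Hnf4a, were not analysed here. Each array was centred on its median, 288 spots at positions unnamed in all 16 print blocks were left out as controls, and probes of 1 symbol were averaged. limma 3.58.1 in R 4.3.3 fitted a ligation and a dye term (1 or -1) over 1174 features, with eBayes (prior SD 0.155 on 10.4 degrees of freedom, 2 residual) and Benjamini-Hochberg adjustment. The fit was tested on simulated data. Receptors and lists were chosen with earlier results of these data known. Every receptor is named, and of each target list those called at 1.5-fold or more, or else the 3 with the smallest adjusted p. Cd36, Cpt1a, Hadhb, Aldh1a1, Apoe, Lpl, Sgk1, Me1, Med1, Serpina1, Tf, and Apoa1 and Ttr among the HNF4A targets, were named in addition after their values were seen. Alternatives covered centring, direction, dye term, normalization, print blocks, probe averaging, control spots, the variance prior and each array left out.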

Additional observations from a re-analysis of the deposited data

How the results depend on the processing

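Nr1h2 stayed higher and called under 12 of 14 alternatives (0.27 to 0.77) and Rxra lower and called under 11 of 14 (-0.90 to -0.41). The -0.90 of Rxra is that of probe 1512 alone. Without centring, which moved the median of all genes to -0.39 from -0.01 (-0.013), 802 genes, 10 receptors and 17 receptor probes were called, and Nr1h2 was at 0.27. There Nr2f1 was at -0.38, Nr3c2 at -0.15, Pparg at -0.28, Rara at -0.36, Rarb at -0.32 and Rxrg at -0.19 (-0.195), all below 0 where the reported value was above it. Read as Cy5 over Cy3, 747 genes, 10 receptors and 18 probes were called and 3 receptors had a called dye term, with Rxra at 0.54, Nr2f2 at 0.23, Nr2f6 at 0.22, Nr2f1 at -0.65, Pparg at -0.54 and Rarb at -0.31, each against its sign as reported. Without a dye term limma called 0 genes, receptors and probes (52, 0 and 1 at an unadjusted p under 0.05), as did an ordinary linear model without variance sharing (231, 5 and 6). The smallest adjusted p of a receptor was 0.998 in the first and 0.125 in the second. Taken as single probes, with each receptor given its probe of smallest p, 5 receptors were called, Rxrg and Nr2f6 in addition. The other probe of Rxra, of Rxrg and of Nr2f6 was not called. Leaving out 1 array gave 191 to 240 called genes, 2 to 4 receptors, 3 to 7 probes and 7 to 10 receptors with a called dye term. Receptor probes fell to 3 without array 2, 3 or 4. In the fits without array 2 or array 4 every receptor gene had the same SE (0.11), larger than that of Nr3c2 over all 4 arrays (0.07). Centring without the control spots split the gene calls 143 higher and 124 lower, against 112 and 148 as reported, and a curve on the dye term, subtracted as an alternative chosen after seeing the data, gave 150 and 116. Leaving out the centring shifts every gene by the same amount, and reading as Cy5 over Cy3 exchanges its ligation value and dye term. Other causes were not tested, among them the fewer degrees of freedom of the ordinary model. Each array holds both pools, so the test of its ratio against 0 is already paired by array. The labels give 1 group of 4 arrays, and no other pairing was used.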
